A study of Mus musculus with 9 samples.

Results

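The proton and ion pump ATPases were taken as all rows of the count table whose mouse symbol starts with Atp1, Atp2, Atp4 or Atp6 to Atp13 followed by a letter. The rule uses names only and no measured value. It found 59 of 14052 genes, of which 19 carry Atp6 names and belong to the vacuolar proton pump (V-ATPase) and 40 are P-type pumps or their subunits. RNA had been sequenced in 9 areas of kidney cortex from mice about 1 year old. The tumour group comprised 5 areas (L4, R2, R3, R4 and R5) from kidney tumours of Vhl F/F Pbrm1 F/F Ksp-Cre mice on a mixed C57BL/6, BALB/c and 129 background. The normal group comprised 4 areas of wild-type C57BL/6 mice (L1, L2, R1 and R2). Ksp-Cre is driven by the Cdh16 promoter, which is active in tubule epithelium, so strain, genotype and tumour growth differ together between the groups and cannot be told apart. The sample descriptions hold 1 number per group, so all areas of a group may come from 1 animal. The p-values below then set the group difference against the spread between areas within an animal. In that case they do not extend to other mice. What the letters L and R stand for was not stated.

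The V-ATPase is a rotary machine. Its cytosolic V1 sector splits ATP, and the turning of its stalk drives protons through the membrane-bound V0 sector. Nearly every cell uses it to acidify lysosomes and endosomes, and acid-secreting intercalated cells of the kidney collecting duct place it on the cell surface with tissue-restricted isoforms of some subunits. P-type pumps instead form a phosphorylated intermediate on the catalytic subunit: they include the Na,K-ATPase that powers salt reabsorption along the tubule, the H,K-ATPases, the calcium pumps of the endoplasmic reticulum, Golgi and plasma membrane, the copper pumps, the P4 flippases that move phospholipids across membranes, and the P5 pumps of the endoplasmic reticulum and endosomes.

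Values are CPM, read counts scaled to library size, with TMM factors, a scaling that assumes most genes unchanged. They are given in the order L1, L2, R1, R2 for normal areas and L4, R2, R3, R4, R5 for tumour areas, and means carry the SD over 4 normal or 5 tumour areas. Log2 fold changes are tumour relative to normal with their standard error, and adjusted p-values are from edgeR's quasi-likelihood test with Benjamini-Hochberg adjustment over the 7020 genes that passed a filter on low counts. A gene was called at an adjusted p under 0.05. CPM are not divided by transcript length, so levels are compared between groups and not between genes. Libraries held 5143527 to 8250261 counted reads, and 3 counts, the limit that a count of 0 allows, came to 0.409 to 0.649 CPM (counting error only). Of all listed genes 28.4% are at 0 in all 9 libraries, so a listed 0 does not show absence. Whether genes with few counts were counted in full is not known either. Vhl fell by 0.79 ± 0.13 on the log2 scale (normal range 97.7 to 108 CPM, tumour range 45.1 to 75.7 CPM, adjusted p = 0.000248), whereas Pbrm1 was not called (-0.19 ± 0.11, adjusted p = 0.142), and neither gene's counts separate deleted from intact exons. Cdh16, a marker of tubule epithelium, was well detected in all areas (1112 to 1163 CPM in normal and 765 to 1082 CPM in tumour areas, -0.23 ± 0.10, adjusted p = 0.0543).

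Of the 59 members, 37 passed the filter, 28 of these were called, 10 higher and 18 lower in the tumour areas, and 9 were not called. The share called, 75.7%, was close to the 74.6% of all 7020 tested genes. Among all tested genes 39.3% were called higher and 35.3% lower. These shares are the background for each count over a subfamily or list below. In the V-ATPase 1 of 13 tested members was called higher and 9 lower, with a median log2 fold change of -0.44 against 0.06 for all tested genes. In the P-type pumps 9 of 24 tested members were called higher and 9 lower, with a median of 0.17. The difference between the classes was not tested. Changes of at least 2-fold upward were seen in 0 V-ATPase and 2 P-type members (17.3% of all tested genes), and downward in 3 V-ATPase and 5 P-type members (12.6% of all tested genes). The areas of the groups did not overlap for 25 of the 37 members, against 67.8% of all tested genes. With library size alone as the scaling, 68.9% of all calls were higher instead of 52.7%, and the counts higher and lower became 2 and 6 in the V-ATPase and 12 and 8 in the P-type pumps. These are tissue samples, in which fewer cells of a type and less RNA per cell cannot be told apart.

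**Figure D1:**
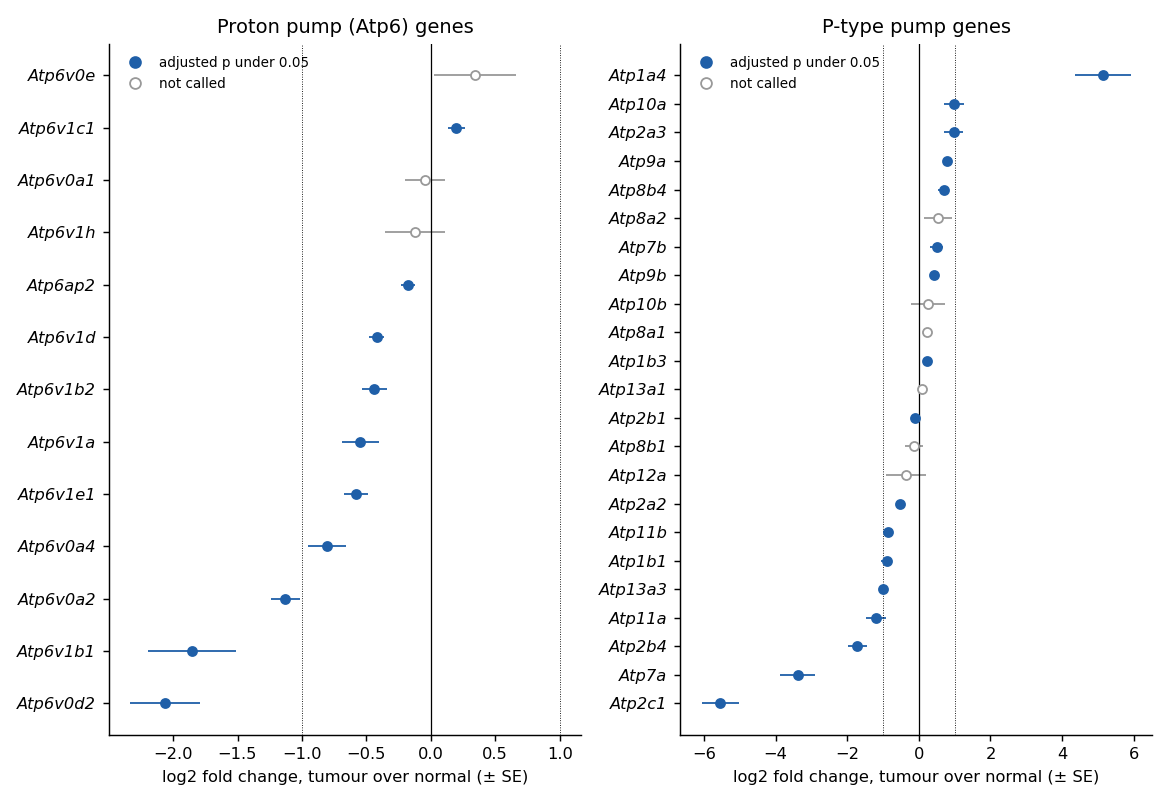
Log2 fold change (tumour over normal, x axis) with its standard error for the tested V-ATPase members (left) and the tested P-type members reported here (right). Filled points were called and open points were not, and the dotted lines mark a 2-fold change. V-ATPase values run from -2.06 to 0.34, and P-type values from -5.55 (Atp2c1, 1 tumour count) to 5.15 (Atp1a4, 1 normal count). With library size alone Atp6ap2, Atp2b1, Atp6v0a1, Atp6v1h and Atp8b1 lie above 0.

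Promoter sequences are shown for 5 members that carry the main contrasts: Atp6v1b1 and Atp6v0a4 (intercalated cell isoforms of the proton pump), Atp6v1a (the catalytic subunit of every V-ATPase), and Atp7a and Atp7b (copper pumps that moved in opposite directions). Each window runs from 250 bases before to 50 bases after the RefSeq start site (build GRCm38.p6), 5′ to 3′ on the strand of the gene. Capitals mark matches, on either strand, to CACGTG (the E-box at the core of the lysosomal gene motif read by TFEB and its relatives), to ACGTG or the variant GCGTG (the core of the hypoxia response element) and to TGTTTAC or the variant TGTTTGC (a forkhead core, the class of Foxi1, a regulator of intercalated cells). The E-box contains the hypoxia core on both strands, so each E-box match also counts there.
Atp6v1b1 (chr6:83742767-83743066, plus strand): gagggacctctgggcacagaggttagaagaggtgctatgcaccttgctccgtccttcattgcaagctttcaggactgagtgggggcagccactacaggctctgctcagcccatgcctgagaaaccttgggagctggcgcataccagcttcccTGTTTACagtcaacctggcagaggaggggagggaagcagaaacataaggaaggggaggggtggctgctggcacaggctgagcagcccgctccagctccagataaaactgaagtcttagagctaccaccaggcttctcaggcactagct
Atp6v0a4 (chr6:38124537-38124836, minus strand): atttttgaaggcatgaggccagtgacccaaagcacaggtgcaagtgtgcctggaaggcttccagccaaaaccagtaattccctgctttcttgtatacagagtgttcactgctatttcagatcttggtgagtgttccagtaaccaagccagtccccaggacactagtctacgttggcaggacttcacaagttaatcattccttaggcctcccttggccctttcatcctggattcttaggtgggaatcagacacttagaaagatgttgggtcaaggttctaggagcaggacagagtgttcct
Atp6v1a (chr16:44139210-44139509, minus strand): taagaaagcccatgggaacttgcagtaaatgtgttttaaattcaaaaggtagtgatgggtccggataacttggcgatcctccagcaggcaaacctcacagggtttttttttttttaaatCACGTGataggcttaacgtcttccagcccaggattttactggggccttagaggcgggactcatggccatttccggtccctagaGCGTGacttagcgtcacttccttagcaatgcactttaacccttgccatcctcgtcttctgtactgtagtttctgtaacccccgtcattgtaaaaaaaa
Atp7a (chrX:106026974-106027273, plus strand): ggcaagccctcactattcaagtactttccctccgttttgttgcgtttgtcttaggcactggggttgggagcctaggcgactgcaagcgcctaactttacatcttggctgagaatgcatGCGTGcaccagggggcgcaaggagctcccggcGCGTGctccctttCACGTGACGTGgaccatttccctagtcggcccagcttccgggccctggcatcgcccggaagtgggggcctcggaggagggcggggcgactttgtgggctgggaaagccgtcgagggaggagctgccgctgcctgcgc
Atp7b (chr8:22060025-22060324, minus strand): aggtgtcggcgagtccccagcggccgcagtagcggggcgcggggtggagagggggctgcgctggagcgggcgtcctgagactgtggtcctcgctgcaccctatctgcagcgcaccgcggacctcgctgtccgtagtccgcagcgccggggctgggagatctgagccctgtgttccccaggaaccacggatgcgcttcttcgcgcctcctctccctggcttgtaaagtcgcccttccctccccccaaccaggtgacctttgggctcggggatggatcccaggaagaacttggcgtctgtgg
The Atp6v1b1 window held 1 forkhead match, at position -98 from the start site, and no other match. Atp6v1a held 1 E-box match and 3 hypoxia core matches, and Atp7a held 1 and 5, with the E-box at -87. No searched letters were found in the Atp6v0a4 and Atp7b windows. Across all 32851 windows of the promoter table, 7.15% held an E-box match, 43.8% a hypoxia core match and 8.48% a forkhead match, and of the 27025 genes in it 8.09%, 46.7% and 9.47% had a window that did. Of the 8 tested V-ATPase members with a window, 2 held an E-box match, 4 a hypoxia core match and 1 a forkhead match. Of the 16 tested P-type members with a window, some with several windows, 3, 8 and 1 did, counted by gene. These matches describe letters in a window and not bound sites.

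The 3 tested isoforms of the acid-secreting pump of intercalated cells fell, 2 of them more than 3-fold. Atp6v1b1 encodes the kidney isoform of the V1 nucleotide-binding B subunit. It stood at 133, 136, 146 and 141 CPM in normal areas and at 27.7, 10.7, 55.4, 46.8 and 51.9 CPM in tumour areas. The groups did not overlap, R2 was the lowest tumour area and R3 the highest, and the mean went from 139 ± 5.72 to 38.5 ± 18.8 CPM (-1.85 ± 0.34, adjusted p = 0.000613). Atp6v0d2 encodes the d2 subunit, which couples the V0 rotor to the V1 stalk and is known in kidney and in osteoclasts. It measured 125, 141, 154 and 140.3 CPM in normal areas and 23.1, 14.8, 47.4, 41.7 and 41.2 CPM in tumour areas. Again R2 was lowest and no tumour area reached a normal area, with means of 140.0 ± 12 and 33.6 ± 13.9 CPM (-2.06 ± 0.27, adjusted p = 5.69e-05). Atp6v0a4 encodes the a4 subunit, the kidney isoform of the V0 part that lets protons in and out. Its levels were 214, 226, 237 and 240.3 CPM in normal areas and 88.4, 133, 149, 164 and 123 CPM in tumour areas. The groups were separate, with L4 lowest, and the change was 1.75-fold (-0.80 ± 0.15, adjusted p = 0.000522).

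Among the broadly used partners of these isoforms, Atp6v1b2 and Atp6v0a2 fell and Atp6v0a1 was not called. Atp6v1b2, the B subunit found in most cells, measured 1386, 1435, 1454 and 1482 CPM in normal areas and 863, 1134, 1109, 1208 and 1001 CPM in tumour areas. All tumour areas lay below all normal areas, and the mean went from 1439 ± 40.4 to 1063 ± 134 CPM (-0.44 ± 0.09, adjusted p = 0.0016). Within each area the log2 ratio of Atp6v1b1 to Atp6v1b2 was -3.38, -3.40, -3.31 and -3.39 in normal areas and -4.94, -6.68, -4.32, -4.68 and -4.26 in tumour areas. The ratio was lower in every tumour area and lowest in R2, and the mean difference was -1.60 (exact permutation test over 126 splits of the areas, 2-sided, p = 0.0159, Benjamini-Hochberg adjusted p = 0.0159 over the 8 isoform pairs tested here). The smallest p that such a test can give is 0.00794. Atp6v0a1, the a subunit of neurons and many other cells, was low in both groups, at 8.01, 9.0, 10.8 and 8.10 CPM in normal areas and at 7.80, 9.06, 8.53, 10.9 and 7.30 CPM in tumour areas. These ranges overlapped almost fully, and the gene was not called (-0.05 ± 0.16, adjusted p = 0.794), with its sign turning positive with library size alone (0.24) and with upper quartile factors (0.02). Atp6v0a2, the a subunit of Golgi and endosomes, measured 33.1, 38.2, 34.7 and 37.7 CPM in normal areas and 15, 16.8, 18.3, 18.6 and 13.5 CPM in tumour areas. It was the third V-ATPase member that fell at least 2-fold, evenly across the tumour areas, with means of 35.9 ± 2.42 and 16.5 ± 2.16 CPM (-1.13 ± 0.11, adjusted p = 6.14e-06), and 9.86% of its exonic bases are overlapped by 4930404A12Rik on the other strand. The log2 ratio to Atp6v0a1 fell by 1.07 for Atp6v0a2 and by 0.79 for Atp6v0a4, without overlap of the groups in either pair (exact permutation test, 2-sided, p = 0.00794 and adjusted p = 0.0127 for each).

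Most tested markers of intercalated cells fell, as did these isoforms, though the tumour areas of Atp6v0a4 were not in the order of the other 2. Of 17 markers fixed for the comparison, 11 were in the table and 9 were tested: 8 fell, 0 rose, and the median log2 fold change was -2.21. Slc26a4 (pendrin, the anion exchanger of type B intercalated cells) measured 73.3, 78.6, 84.4 and 85.4 CPM in normal areas and 6.82, 2.52, 18.2, 19.5 and 19.0 CPM in tumour areas. As with Atp6v1b1 and Atp6v0d2, R2 was lowest and L4 next, and the groups were separate (-2.61 ± 0.41, adjusted p = 0.000206). Rhcg, an ammonia channel, fell by 3.22 ± 0.47 (adjusted p = 0.000109) and Aqp6, a vesicle aquaporin of these cells, by 2.31 ± 0.40 (adjusted p = 0.000383). Car2, a carbonic anhydrase that other tubule cells also express, was not called (843 ± 28.3 against 918 ± 96.2 CPM, 0.12 ± 0.08, adjusted p = 0.198) and made up most of the list's summed level, which ranged from 1495 to 1633 CPM in normal and from 883 to 1259 CPM in tumour areas. Foxi1 and Slc4a1, a regulator and the anion exchanger of type A cells, were not analysed here, and Car15 was listed at 0. Markers of principal cells, the sodium- and water-absorbing cells of the same duct, showed the same direction: 6 of 7 tested markers fell and 0 rose, with a median of -1.75 and summed levels of 1447 to 1473 CPM in normal and 156 to 518 CPM in tumour areas. Lower intercalated cell content and lower pump transcripts per cell cannot be told apart in these libraries, and the part of the markers in the pump result was not tested.

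**Figure D2:**
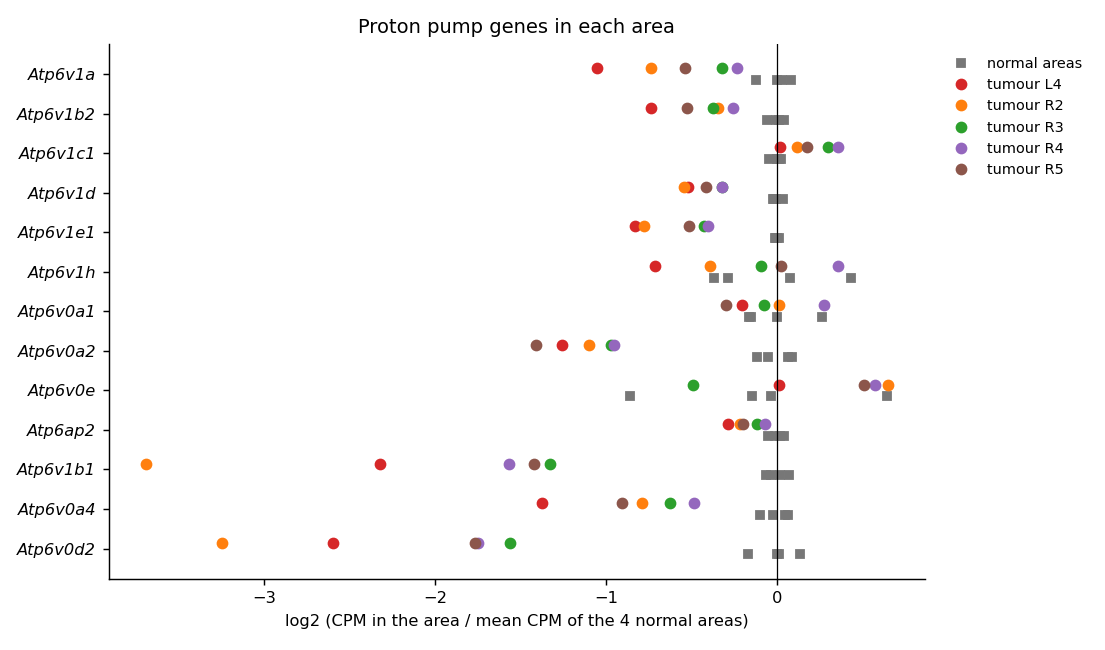
Log2 ratio of CPM in an area to the mean of the 4 normal areas (x axis) for the 13 tested V-ATPase members; grey squares are normal areas and coloured circles the 5 tumour areas. Atp6v1b1 and Atp6v0d2 reach furthest to the left, with R2 (10.7 and 14.8 CPM) and then L4 lowest, whereas the tumour areas of Atp6v1h, Atp6v0a1 and Atp6v0e mix with the normal areas.

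The remaining V1 subunits mostly fell by modest amounts with TMM factors. With library size alone, fewer V-ATPase members were called lower. Atp6v1e1, a subunit of the peripheral stalk, measured 570.1, 570.3, 576 and 567 CPM in normal areas and 321, 333, 424, 432 and 401 CPM in tumour areas. Atp6v1a, the catalytic subunit, measured 169.8, 189, 196 and 185 CPM in normal areas and 89.2, 111, 148, 157 and 127 CPM in tumour areas. Atp6v1d, part of the central rotor shaft, measured 330.0, 331, 333 and 343 CPM in normal areas and 234, 229.6, 267, 268 and 251 CPM in tumour areas. For all 3 genes every tumour area lay below every normal area, L4 or R2 was lowest and R4 highest. Their log2 fold changes were -0.58 ± 0.09 (adjusted p = 0.00022), -0.55 ± 0.14 (adjusted p = 0.00536) and -0.42 ± 0.06 (adjusted p = 8.69e-05), so changes were 1.34- to 1.49-fold where the restricted Atp6v1b1 fell 3.61-fold. Atp6v1c1, which links the stalks and is released when the pump comes apart, was the only V-ATPase member called higher. It measured 179.8, 182, 183 and 174 CPM in normal areas and 182, 195, 221, 229.9 and 203 CPM in tumour areas. Tumour area L4 lay within the normal range, the rise was 1.15-fold (0.20 ± 0.07, adjusted p = 0.0237), and the call was lost without normal L1 (adjusted p = 0.0574), L2 (0.0533) or R2 (0.0731). Atp6v1h, a regulatory subunit of V1, was not called, at 12.6 ± 3.30 CPM in normal and 11.6 ± 3.22 CPM in tumour areas (-0.13 ± 0.23, adjusted p = 0.641), and its sign turned positive with library size alone.

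The accessory protein and the small V0 subunits added little change. Atp6ap2, the prorenin receptor, which is needed for assembly of V0, measured 393, 414, 421 and 405 CPM in normal areas and 335, 352, 376, 389 and 356 CPM in tumour areas. The groups were separate by a narrow gap, and the gene was called lower (-0.18 ± 0.06, adjusted p = 0.0142), but the direction turned with library size alone (0.11, adjusted p = 0.0244). Atp6v0e measured 5.19, 3.0, 1.83 and 3.24 CPM in normal areas and 3.34, 5.2, 2.36, 4.94 and 4.72 CPM in tumour areas, with full overlap and no call (0.34 ± 0.32, adjusted p = 0.342). The other V-ATPase members were too low to test. Atp6v0b and Atp6v0c, which form the proton-carrying ring of V0, were listed at 0 in all libraries, although no V-ATPase can work without that ring, so their 0 is no measure of expression. Atp6ap1 had 16 counts in all, Atp6v1c2 had 12, and Atp6v1fnb, which is named after the neighbouring Atp6v1f and is no subunit, had 3. Atp6v0e2, with 43 counts in normal and 29 in tumour areas, missed the filter and was called lower with a milder one (at least 1 CPM in 4 areas: -1.04 ± 0.29, adjusted p = 0.00772). Among symbols of the reference that fit the naming rule, 11 were not among the genes of the table and were not analysed here, among them Atp6v0d1, Atp6v1f and the Atp6v1g genes.

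Genes that assemble the pump or work beside it did not follow 1 direction. Of 15 partners fixed for the V-ATPase, 9 were tested, and 3 rose and 3 fell (66.7% called, against 74.6% of all tested genes). Dmxl2, a subunit of the RAVE (rabconnectin) complex that rejoins V1 to V0, measured 63.8, 73.9, 64.4 and 71.9 CPM in normal areas and 4.32, 8.22, 9.99, 10.2 and 5.17 CPM in tumour areas. No tumour area came near a normal one, and its fall of 3.19 ± 0.22 on the log2 scale (adjusted p = 6.26e-07) was larger than that of any tested V-ATPase subunit. Its complex partners moved less and in both directions, with Wdr7 at -0.47 ± 0.06 (adjusted p = 2.71e-05) and Rogdi at 0.47 ± 0.07 (adjusted p = 0.000177). Aldoa, a glycolytic enzyme that binds the pump, rose from 221 ± 2.41 to 440.4 ± 60.8 CPM (0.99 ± 0.10, adjusted p = 5.77e-06). Tmem199, an assembly factor, rose from a low level (2.48 ± 0.389 to 4.71 ± 0.379 CPM, 0.90 ± 0.17, adjusted p = 0.000565). Tcirg1, the a3 subunit of osteoclasts and lysosomes, was listed at 0, as were Ccdc115 and Tldc2.

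Genes of the lysosome, which the V-ATPase acidifies, changed in both directions. Of 19 tested genes of the list, 10 rose, 5 fell and 4 were not called, with a median of 0.17. The share called, 78.9%, was close to the 74.6% of all tested genes. Lamp1, an abundant lysosomal membrane protein, measured 3582, 3578, 3602 and 3569.6 CPM in normal areas and 4394, 6868, 5833, 6059 and 4547 CPM in tumour areas. All tumour areas were above all normal ones (0.63 ± 0.14, adjusted p = 0.00175). Its relative Lamp2 went the other way, from 2549.7 ± 32.2 to 1956 ± 282 CPM (-0.38 ± 0.11, adjusted p = 0.00737). The largest rise was that of Grn (progranulin), a secreted and lysosomal glycoprotein (1.32 ± 0.09, adjusted p = 6.25e-07), followed by the hydrolases Glb1 (0.98 ± 0.15, adjusted p = 0.00014) and Ctsa (0.85 ± 0.18, adjusted p = 0.00147). Psap, the precursor of the saposins, fell by 0.88 ± 0.08 (adjusted p = 5.16e-06), and Clcn7, the lysosomal chloride-proton exchanger, by 0.81 ± 0.17 (adjusted p = 0.00148). The list of Ragulator and Rag genes, through which the V-ATPase touches mTORC1 signalling, had 7 tested genes. Rragb (0.88 ± 0.22, adjusted p = 0.00427) and Lamtor1 (0.58 ± 0.06, adjusted p = 1.25e-05) rose, while Lamtor3 (-0.31 ± 0.05, adjusted p = 0.000191) and Fnip1 (-0.27 ± 0.09, adjusted p = 0.0216) fell. Fnip1 is in that list but encodes neither a Ragulator subunit nor a Rag protein. Markers of phagocytes and osteoclasts, cells rich in lysosomes, rose beside these genes: 10 of 11 tested markers were called higher, 0 lower, and the summed level ranged from 186 to 217 CPM in normal and from 1055 to 2332 CPM in tumour areas. The part of those cells in the lysosomal values was not tested.

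Of the 4 tested Na,K-ATPase subunits, 3 rose and 1 fell, and the one that fell was the main beta subunit of the tubule. Atp1b1, the beta subunit that carries the catalytic subunit to the basolateral membrane, measured 10509, 10942, 10635 and 10699 CPM in normal areas and 4082, 4949, 6901, 6911 and 5751 CPM in tumour areas. Every tumour area was below every normal area, with L4 lowest, and the fall was 1.87-fold (-0.90 ± 0.16, adjusted p = 0.000377). A share of 18.7% of its exonic bases is overlapped by Nme7 on the other strand, whose reads cannot be told apart in this kit. Atp1b3, the beta subunit used in many other cells, measured 318, 318, 314 and 312 CPM in normal areas and 412, 338, 386, 334 and 388 CPM in tumour areas. It was higher in all tumour areas, though by little in R2 and R4 (0.24 ± 0.07, adjusted p = 0.00991), and 9.71% of its 50-base stretches also occur in Gm1848. The log2 ratio of Atp1b3 to Atp1b1 rose from -5.08 ± 0.03 to -3.92 ± 0.40, a difference of 1.16 without overlap (exact permutation test, 2-sided, p = 0.00794, adjusted p = 0.0127). Markers of the nephron segments that carry most of the Na,K-ATPase fell in the same areas, namely 15 of 16 tested proximal tubule markers (median -1.50, summed level 66128 to 68139 CPM in normal and 26739 to 49413 CPM in tumour areas) and 9 of 11 tested markers of the thick limb and distal tubule (median -1.67), with 0 rising in either list. Their part in the Atp1b1 result was not tested.

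Among the catalytic alpha subunits, Atp1a4 rose from almost no counts. Atp1a4, the alpha form of sperm, had 0, 0.136, 0 and 0 CPM in normal areas and 3.20, 2.68, 2.0, 0.726 and 2.59 CPM in tumour areas. That is 1 count in normal areas against 72 in tumour areas, a ratio per counted read of 51.4 (95% counting interval 8.93 to 2057, adjusted p = 0.000148), and the gene no longer passed the filter without tumour L4, R2, R3 or R5. The fitted log2 fold change depends on that single count: it was 5.15 with all areas and 6.75 without normal L2.

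Of 6 tested partners of the Na,K-ATPase and the calcium pumps, 4 rose and 0 fell. Fxyd5, a FXYD regulator of the Na,K-ATPase also known as dysadherin, rose from 0.597 ± 0.319 to 5.27 ± 1.94 CPM (3.17 ± 0.42, adjusted p = 6.18e-05). Fxyd2, the gamma subunit of the kidney pump, was not called (2.78 ± 1.22 and 3.52 ± 1.22 CPM, 0.34 ± 0.34, adjusted p = 0.385). This rests on 64 counts in normal and 114 in tumour areas, and whether all reads of Fxyd2 were counted is not known. The calmodulin genes Calm2 (0.57 ± 0.06, adjusted p = 8.65e-06) and Calm3 (0.46 ± 0.08, adjusted p = 0.000368), whose product activates plasma membrane calcium pumps, rose. Atp12a, the non-gastric H,K-ATPase of the collecting duct, measured 2.16, 2.59, 1.83 and 3.04 CPM in normal areas and 0.835, 0.168, 3.81, 1.45 and 3.20 CPM in tumour areas. It was low with overlapping groups and not called (-0.37 ± 0.56, adjusted p = 0.569), and 13.9% of its exonic bases are overlapped by Gm10873 on the other strand. The gastric pump subunits Atp4a and Atp4b were listed at 0 in every library, as was the Na,K-ATPase subunit Atp1b2, and Atp1b4 had 1 count.

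**Figure D3:**
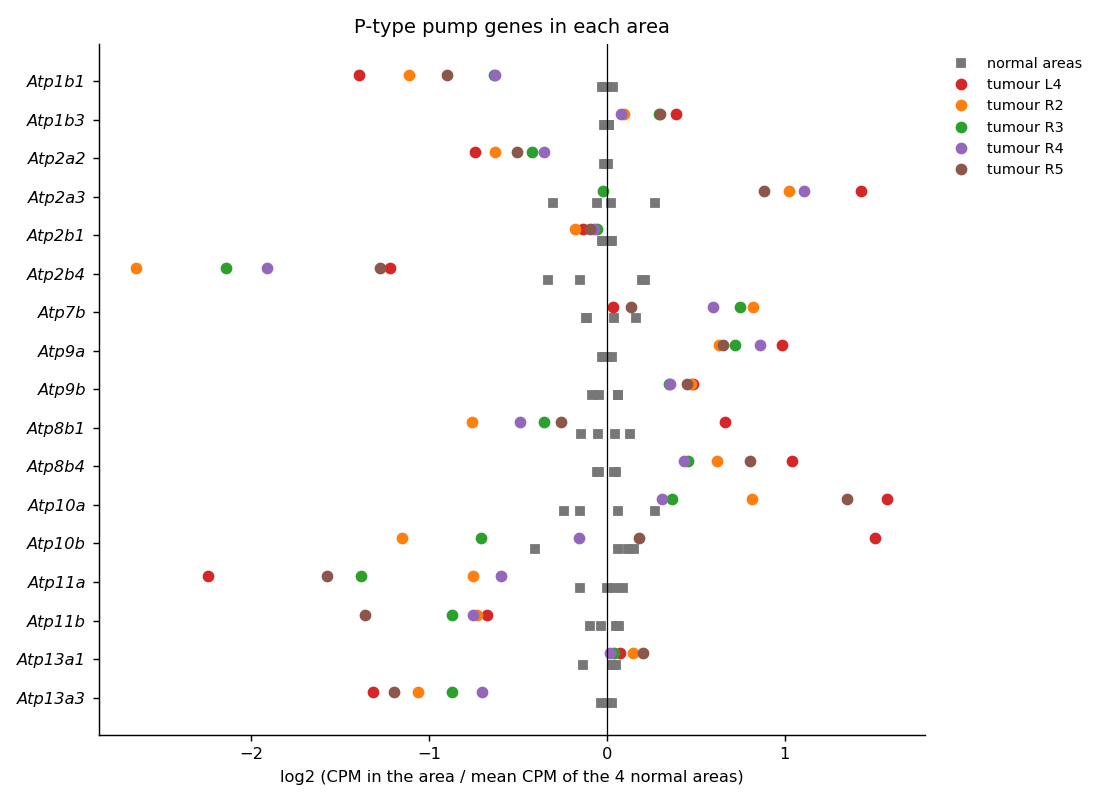
Log2 ratio of CPM in an area to the mean of the 4 normal areas (x axis) for called and selected other P-type members without a 0 in any area; grey squares are normal areas and coloured circles the 5 tumour areas. Atp10a spreads over the tumour areas from 7.70 (R4) to 18.5 CPM (L4), and L4 is the only tumour area of Atp8b1 above the normal areas. Atp8a1, Atp8a2 and Atp12a are not drawn.

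Among the calcium pumps 4 of 5 tested members fell and 1 rose. Atp2a2 (SERCA2), which refills the endoplasmic reticulum in most cells, measured 1052, 1064, 1063 and 1067 CPM in normal areas and 635, 687, 794, 829.8 and 748 CPM in tumour areas. The normal areas lay close together, and all tumour areas were lower (-0.52 ± 0.08, adjusted p = 0.00016). Atp2a3 (SERCA3), the form of blood, endothelial and some epithelial cells, measured 5.63, 5.32, 4.48 and 6.68 CPM in normal areas and 14.9, 11.2, 5.45, 11.9 and 10.2 CPM in tumour areas. It was higher in 4 tumour areas, while R3 lay within the normal range (0.97 ± 0.26, adjusted p = 0.00624). The log2 ratio of Atp2a3 to Atp2a2 was higher in every tumour area than in any normal one, by 1.39 on average (exact permutation test, 2-sided, p = 0.0159, adjusted p = 0.0159). Markers of B, plasma and T cells rose in the same areas, with 8 of 8 tested called higher and summed levels of 10.1 to 15 CPM in normal and 416 to 1103 CPM in tumour areas, and their part in the Atp2a3 result was not tested.

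Of the plasma membrane and Golgi calcium pumps, Atp2b4, Atp2b1 and Atp2c1 were tested and called lower, Atp2b1 by little and not in every alternative. Atp2b4 (PMCA4) measured 10.8, 12.3, 15.6 and 15.8 CPM in normal areas and 5.85, 2.18, 3.09, 3.63 and 5.63 CPM in tumour areas. The groups were separate, with L4 and R5 the highest tumour areas (-1.72 ± 0.26, adjusted p = 0.00016). Atp2b1 (PMCA1), the broad form, measured 264, 263, 273 and 271 CPM in normal areas and 244, 237, 257, 254 and 250.3 CPM in tumour areas. The groups were separate by a narrow gap. The change was 1.08-fold (-0.11 ± 0.04, adjusted p = 0.0471), its direction turned with library size alone (0.18, adjusted p = 0.00271), and the call was lost without any 1 of tumour L4, R2 or R5 or of the 4 normal areas (adjusted p = 0.0618 to 0.112). The log2 ratio of Atp2b4 to Atp2b1 fell by 1.62 without overlap (exact permutation test, 2-sided, p = 0.00794, adjusted p = 0.0127). Atp2c1 (SPCA1), the Golgi pump for calcium and manganese, had 2.81, 2.59, 2.16 and 2.02 CPM in normal areas and 0, 0, 0, 0.145 and 0 CPM in tumour areas. A single count in R4 stood against 55 counts in the normal areas (normal to tumour ratio 77.1, 95% counting interval 13.3 to 3099, adjusted p = 4.79e-06). The fitted log2 fold change was -5.55 with all areas and -6.86 without tumour R4, and 18.9% of its exonic bases are overlapped by Aste1 on the other strand. Atp2b2 (PMCA2), which missed the filter, had 53 counts in normal and 6 in tumour areas and was called lower with the filter of at least 1 CPM in 4 areas (-3.47 ± 0.48, adjusted p = 8.37e-05). Atp2c2 (SPCA2), the other Golgi pump, had more counts in the tumour areas, 19 against 4 in normal areas, and was not called without a filter (1.66 ± 0.68, adjusted p = 0.0565). Atp2a1 and Atp2b3 had 5 and 1 counts in all.

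Other calcium genes of the cortex changed in both directions. All 11 tested genes of the calcium entry and store list were called, against 74.6% of all tested genes, 7 lower and 4 higher, with a median of -0.90. Slc8a1, the sodium-calcium exchanger that works beside Atp2b4 on the basolateral side of the distal tubule, measured 126, 139, 151 and 157 CPM in normal areas and 6.68, 5.87, 13.1, 19.0 and 14.2 CPM in tumour areas. No tumour area reached a normal one (-3.60 ± 0.27, adjusted p = 1.17e-06). Calb1, the calcium buffer calbindin of the same cells, measured 3112, 3280.1, 3689 and 3681 CPM in normal areas and 331, 161, 880.1, 917 and 944 CPM in tumour areas. R2 was again lowest and the groups were separate (-2.41 ± 0.45, adjusted p = 0.000613). Ryr2, a store release channel, fell by 1.92 ± 0.40 (adjusted p = 0.00143), whereas its relative Ryr1 rose from 0.245 ± 0.199 to 2.90 ± 0.908 CPM (3.39 ± 0.48, adjusted p = 9.93e-05). Trpv6, an apical calcium channel, rose from 3.52 ± 0.876 to 8.80 ± 2.01 CPM (1.31 ± 0.23, adjusted p = 0.00039), and the store sensor Stim2 rose by 0.57 ± 0.22 (adjusted p = 0.0355).

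The copper pumps moved in opposite directions. Atp7a, the Menkes disease pump that delivers copper to Golgi enzymes and exports it, measured 3.68, 4.23, 6.48 and 3.04 CPM in normal areas and 0.139, 0.671, 0, 0.871 and 0.304 CPM in tumour areas. All tumour areas were below all normal areas, on 13 tumour counts in all (-3.38 ± 0.49, adjusted p = 0.000107). Atp7b, the Wilson disease pump, measured 16.4, 15.1, 13.6 and 13.6 CPM in normal areas and 15, 26.0, 24.7, 22.2 and 16.1 CPM in tumour areas. L4 and R5 lay within the normal range while R2, R3 and R4 lay above it (0.50 ± 0.18, adjusted p = 0.0264), and the call was lost without tumour R2 (adjusted p = 0.0541) or R3 (0.0568) and without normal L2 (0.0528), R1 (0.0716) or R2 (0.0705). The log2 ratio of Atp7a to Atp7b went from -1.73 ± 0.48 to -4.99 ± 0.76, a difference of -3.26 without overlap (exact permutation test, 2-sided, p = 0.00794, adjusted p = 0.0127). Of 3 other copper genes tested, Slc31a2, an endosomal copper transporter, rose (0.74 ± 0.10, adjusted p = 6.77e-05) and Commd1, which binds both pumps, fell (-0.77 ± 0.21, adjusted p = 0.00753). Slc31a1, the uptake transporter, was listed at 0.

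**Figure D4:**
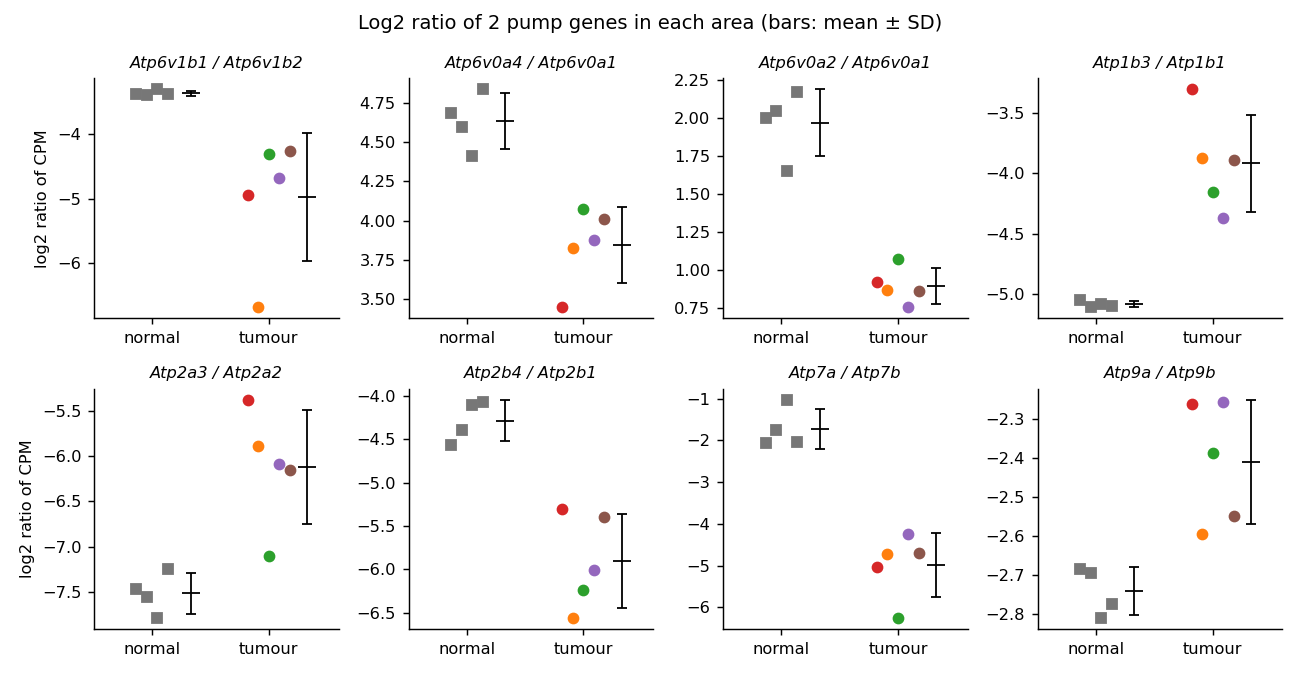
Log2 ratio of CPM between the members of 8 pairs (y axis) in each of the 4 normal (squares) and 5 tumour areas (circles, coloured by area as in the plots of values by area), with the mean and SD as bars. Of 19 pairs fixed for the comparison, these 8 had both members tested. The ratios do not overlap between the groups in any of them, and the widest shift is that of Atp7a to Atp7b (-3.26). Among single genes, 67.8% of all tested genes did not overlap, and the share among ratios of other gene pairs was not computed. Ratios are not corrected for transcript length, so only their shift between groups is read.

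Of 10 tested P4 flippases 4 rose and 2 fell (60% called, against 74.6% of all tested genes). Atp11a and Atp11b, which return phosphatidylserine to the inner leaflet of the plasma membrane and of endosomes, were the members that fell. Atp11a measured 18.4, 21.0, 20.4 and 21.7 CPM in normal areas and 4.32, 12.1, 7.81, 13.5 and 6.85 CPM in tumour areas. Atp11b measured 22.7, 25.4, 25.1 and 23.7 CPM in normal areas and 15.2, 14.6, 13.3, 14.4 and 9.44 CPM in tumour areas. Neither gene's groups overlapped, and L4 was lowest for Atp11a and R5 for Atp11b (-1.20 ± 0.27, adjusted p = 0.0024, and -0.86 ± 0.13, adjusted p = 0.000197). Atp9a and Atp9b, flippase relatives that work without a beta subunit in endosomes and the Golgi, both rose. Atp9a measured 11.5, 11.7, 11.6 and 11.9 CPM in normal areas and 23.1, 18.1, 19.2, 21.2 and 18.4 CPM in tumour areas. Atp9b measured 75.5, 77.7, 83.5 and 83.6 CPM in normal areas and 112, 111, 102, 103 and 109 CPM in tumour areas. Both were above the normal range in every tumour area, Atp9a by 1.71-fold (0.78 ± 0.10, adjusted p = 6.49e-05) and Atp9b by 1.34-fold (0.42 ± 0.06, adjusted p = 5.28e-05), and their log2 ratio shifted by 0.33 (exact permutation test, 2-sided, p = 0.0159, adjusted p = 0.0159).

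The Atp8 and Atp10 flippases were more uneven between tumour areas. Atp10a, a phosphatidylcholine flippase of the plasma membrane, measured 6.49, 5.59, 7.47 and 5.26 CPM in normal areas and 18.5, 10.9, 7.99, 7.70 and 15.8 CPM in tumour areas. L4 and R5 were well above the normal range and R3 and R4 just above it (0.98 ± 0.29, adjusted p = 0.00995), and with R2, R3 and R4 as the only tumour areas the log2 fold change was 0.52 (adjusted p = 0.03). Atp8b4 measured 7.14, 7.09, 6.64 and 6.68 CPM in normal areas and 14.2, 10.6, 9.44, 9.29 and 12 CPM in tumour areas. It had the same order of tumour areas at the top, L4 before R5, and no overlap (0.69 ± 0.15, adjusted p = 0.00199). Smooth muscle and pericyte markers were also highest in those areas, with summed levels of 1321 to 1531 CPM in normal areas and 4616 in L4, 2059 in R2, 1928 in R3, 1758 in R4 and 2954 in R5. Fat markers summed to 9.92 to 31.7 CPM in normal areas, 746 in L4, 163 in R5 and 6.71 to 28.6 in the remaining tumour areas, and 1 of 3 tested fat markers was called. L4 and then R5 were also highest for the summed markers of other cell types. These were phagocytes and osteoclasts (2332 and 1680 CPM), B, plasma and T cells (1103 and 824 CPM) and urothelium (1241 and 244 CPM). The part of any of these cells in the Atp10a and Atp8b4 results was not tested. Atp8b1, the flippase mutated in progressive familial intrahepatic cholestasis, measured 36.3, 31.8, 38.5 and 34.0 CPM in normal areas and 55.7, 20.8, 27.6, 25.1 and 29.4 CPM in tumour areas. L4 was above and the other 4 tumour areas were below every normal area, and the gene was not called (-0.14 ± 0.25, adjusted p = 0.619), but was called lower without L4 (-0.44, adjusted p = 0.00491), and its sign turned positive with library size alone (0.16). Atp10b, a late endosomal lipid pump, measured 6.49, 9.55, 8.97 and 9.31 CPM in normal areas and 24.4, 3.86, 5.26, 7.70 and 9.74 CPM in tumour areas. Here too L4 stood above all other areas, and the value was 0.26 ± 0.47 (adjusted p = 0.634), turning to -0.35 without L4.

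Atp8a1, a phosphatidylserine flippase of endosomes, measured 58.0, 52.4, 49.0 and 50.0 CPM in normal areas and 73.2, 62.8, 53.7, 52.0 and 66.5 CPM in tumour areas. R3 and R4 lay within the normal range, L4, R2 and R5 above it, and the gene was not called (0.24 ± 0.11, adjusted p = 0.0688). Its neural relative Atp8a2 was not called either (0.53 ± 0.38, adjusted p = 0.226), and 14.1% of its exonic bases are overlapped by other genes on the other strand. Markers of urothelium, the lining of the renal pelvis, were concentrated in the area where Atp8b1 and Atp10b were high: their summed level was 1.00 to 7.36 CPM in normal areas and 1241 in L4, 110 in R2, 67.4 in R3, 43.9 in R4 and 244 in R5, with 6 of 6 tested markers called higher. Their part in the flippase values was not tested. Ano6, a scramblase that undoes the work of flippases and the only tested gene of the short list of flippase partners, was not called (-0.01 ± 0.05, adjusted p = 0.927). Of the flippases that were not tested, Atp8b5 had 7 counts in all, Atp8b3 had 4, and Atp8b2 was listed at 0.

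**Figure D5:**
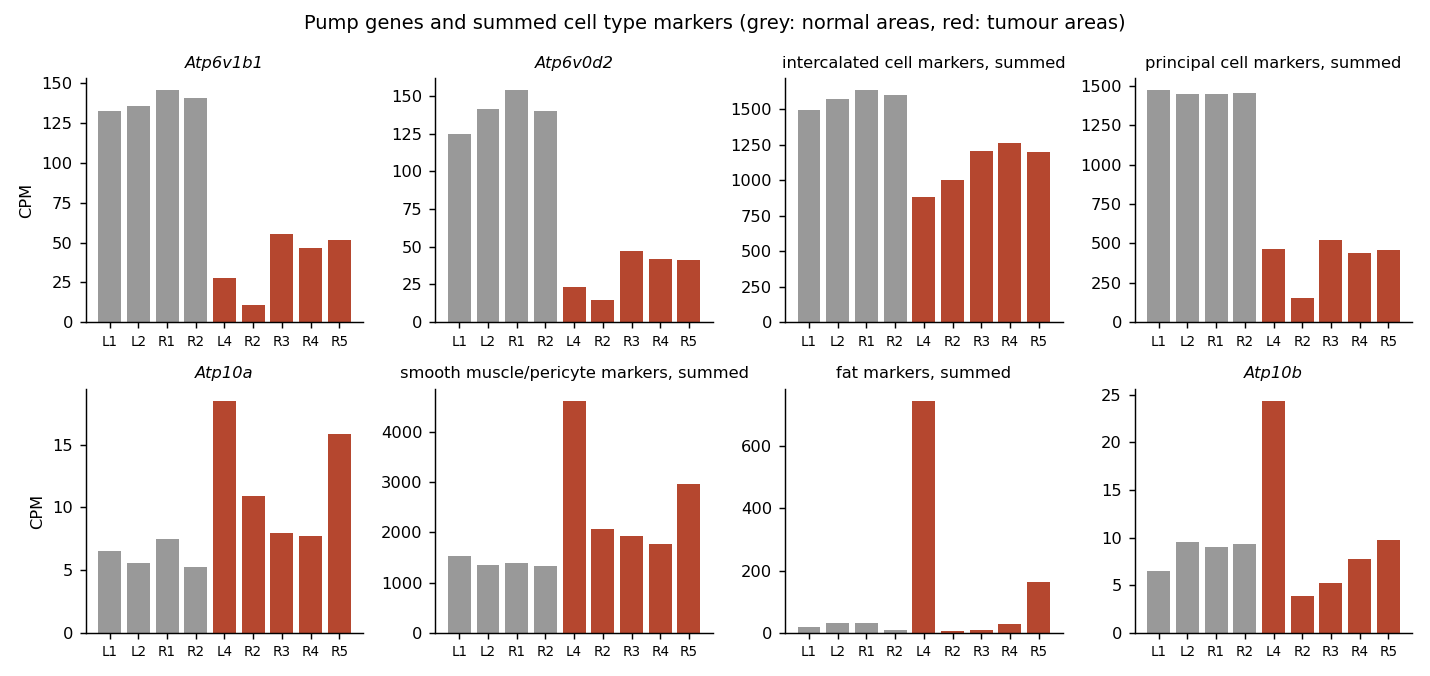
CPM (y axis, from 0) of Atp6v1b1, Atp6v0d2, Atp10a and Atp10b and summed CPM of 4 marker lists in each of the 4 normal (grey) and 5 tumour areas (red). Smooth muscle and fat markers and Atp10a are highest in L4 and then R5, and Atp6v1b1, Atp6v0d2 and the principal cell markers are lowest in R2 (10.7, 14.8 and 156 CPM). The summed intercalated cell markers, mostly Car2, are lowest in L4 (883 CPM, against 1001 CPM in R2).

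Of the 2 tested P5 pumps 1 fell and 1 was not called. Atp13a3, an endosomal polyamine transporter, measured 855, 873, 837 and 858 CPM in normal areas and 345, 409.8, 469, 526 and 373 CPM in tumour areas. Every tumour area lay far below the normal range, a 2.02-fold fall (-1.01 ± 0.11, adjusted p = 1.6e-05). Atp13a1, which removes misplaced membrane helices from the endoplasmic reticulum, measured 79.4, 79.4, 80.1 and 70.7 CPM in normal areas and 81.4, 85.6, 79.5, 78.3 and 89.2 CPM in tumour areas. The groups overlapped and the gene was not called (0.10 ± 0.06, adjusted p = 0.175), although upper quartile factors (0.16, adjusted p = 0.042) and library size alone (0.39, adjusted p = 0.000818) called it higher. Atp13a2, Atp13a4 and Atp13a5 were listed at 0 in all libraries.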

How the data were processed

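RNA sequencing libraries of 5 tumour and 4 normal areas of mouse kidney cortex were compared. Per the labels' protocols, poly(A)-selected RNA was made into TruSeq libraries, a kit that does not keep strand, and read as paired ends of 50 bases. The deposited table holds raw counts per gene, 1 column per library, and build mm9, HTSeq, edgeR and STAR 2.3 are listed in the submitters' processing notes. Which annotation, strand setting or filter made the table is not stated in the sources used here. Identifiers were matched to symbols of a GENCODE table: 14026 matched and 26 did not. Promoter windows came from RefSeq on GRCm38.p6, a later build than that of the counts, and served only for sequence.

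Counts were fitted in R 4.3.3 with edgeR 4.0.16: low genes were dropped by filterByExpr (at least 10 counts, total of 15), libraries were scaled with TMM (factors 1.04 to 1.17 in tumour, 0.89 to 0.90 in normal areas), and a quasi-likelihood test had the group as its only term. The p-values of this test were adjusted over the 7020 tested genes. Isoform ratios used log2 CPM with a prior count of 2 and an exact permutation test of the group difference. No 2 libraries of a group agreed within sampling noise. Of these steps only the edgeR fit was tested on simulated counts. Few genes changed in that simulation and all had the same spread, so the scaling was not tested where many genes change.

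The results were recomputed with RLE factors, upper quartile factors or library size alone, without a filter or with one of 1 CPM or more in 4 areas, with DESeq2 1.42.0, limma-voom (limma 3.58.1), the area letter as a covariate, a prior count of 0.5, and without each area in turn. A run with tumour areas R2, R3 and R4 only was chosen after seeing the data. The members and lists were chosen with earlier results of these data known. Values by area are given for the restricted V-ATPase isoforms and their partners, Na,K-ATPase subunits and, per class, up to 8 called members each way whose mean reached 1 CPM in the higher group. Some members and list genes are not reported here, though counts over groups include them. Other members follow in less detail or by their counts, and several with values by area (Atp6v0e, Atp12a, Atp13a1, Atp8a1, Atp8b1, Atp10b) were chosen after their values were seen. From each gene list up to 3 called genes in each direction are named, and Lamp1, Car2, Ano6, Foxi1, Slc4a1 and other genes listed at 0 or without a call were added to them.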

Additional observations from a re-analysis of the deposited data

Results flagged for a closer look

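In 74 groups of areas (each tested member in each group), 5 had 1 area far from the others by the size of its gap to the nearest area relative to the range, and chance alone gives about 1 in 20. That rate does not apply to Atp1a4 and Atp2c1, where 1 count beside areas at 0 gives the widest possible gap by construction. Atp10b stood at 24.4 CPM in tumour area L4, against 3.86 to 9.74 CPM in the other tumour areas. Atp8b1 stood at 55.7 CPM in the same area, against 20.8 to 29.4 CPM. Atp13a1 was lowest in normal area R2, at 70.7 CPM against 79.4 to 80.1 CPM. Atp1a4 had 0.136 CPM in normal area L2, from 1 count, and 0 in the other normal areas. Atp2c1 had 0.145 CPM in tumour area R4, also from 1 count, and 0 in the other tumour areas.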

How the results depend on the processing

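Of 37 fold changes of tested members, 25 kept their call and direction in every alternative in which they were fitted. In all 18 alternatives were run, but some members missed the filter in some of them and had no value there. The count of V-ATPase members called higher, 1, was 2 with library size alone, 0 with the area letter as a covariate and 0 to 1 with an area left out (0 without normal L1, L2 or R2). P-type members at least 2-fold higher, 2, became 4 with upper quartile factors or the area letter, 5 with library size alone, 1 to 3 with an area left out (1 without tumour L4 or R5, 3 without tumour R3 or R4 or normal R1 or R2) and 0 with tumour R2, R3 and R4 only. P-type members at least 2-fold lower, 5, became 3 with library size alone or with those 3 tumour areas, and 4 to 5 with an area left out. Library size alone moved the median of all genes to 0.35 and the share of calls that were higher from 52.7% to 68.9%, and turned the sign of Atp2b1 (0.18), Atp6ap2 (0.11), Atp6v0a1 (0.24), Atp6v1h (0.16) and Atp8b1 (0.16). With that scaling 2 other members lost their call without a change of sign, and 2 gained one. Atp6v0a1 was 0.016 with upper quartile factors and 0.092 with R2, R3 and R4 only, and -0.15 to 0.048 with an area left out. Atp6v1h ran from -0.28 to 0.047 with an area left out. Atp10b was -0.012 with limma-voom, -0.59 with R2, R3 and R4 only, and -0.35 to 0.47 with an area left out. The causes were not tested. The 8 isoform ratios kept direction and call in every alternative run. No paired analysis was possible because the groups come from mice of different genotype, so no tumour area has a normal area of the same animal. Members with few counts (Atp1a4, Atp2c1, Atp7a) are limited by depth, and Atp1a4 could not be fitted where it missed the filter.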
